A study of Caenorhabditis elegans with 4 samples.

Results

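The genes described here are 34 genes of Caenorhabditis elegans that neurons use to release, make, carry or sense transmitters, or that define single neuron classes. They were chosen by name: a member counted when a spot of the array was annotated with its symbol and no other gene. Of the 34 genes, 32 had such a spot and 2, cha-1 and unc-86, had none, out of 14958 named genes on the array. All 32 had a value on every array, and 30 of them were read by 1 spot and 2 by 2 spots.

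The samples were 4 arrays with 2 RNAs each: mRNA from glp-4 adults, preps 1 to 4, in channel 2, and a wild-type mixed reference RNA in channel 1. Worms with a temperature-sensitive mutation of glp-4, a valyl-tRNA synthetase gene, are used to obtain adults with very few germ cells. The sources used here do not give the glp-4 allele, the culture temperature, the age of the adults, the make-up of the reference or whether the preps came from separate cultures. The p-values therefore rest on the spread between 4 preps, which may be technical. Wild-type RNA was on the arrays only as this reference, so the spread between wild-type samples is not part of any test.

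A neuron signals by fusing vesicles filled with transmitter with its membrane. The SNARE proteins synaptobrevin, syntaxin and SNAP-25 drive the fusion, synaptotagmin senses the calcium that triggers it, and other proteins prime, tether, carry and recycle the vesicles. Transmitter classes are set apart by enzymes, vesicular transporters and often transporters of the cell surface, some of them shared between classes. In the worm, acetylcholine and GABA are the excitatory and inhibitory transmitters of body wall muscle, glutamate is released by many sensory neurons and interneurons, and dopamine and serotonin are made by small sets of neurons.

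Values are log2 ratios of glp-4 adults over the reference, so -1 stands for a 2-fold lower ratio. The direction is likely rather than certain: it follows from how each array is described and from which channel held which RNA. No dye is named, and if the ratio ran the other way, all signs would be opposite. The glp-4 RNA was in channel 2 on all 4 arrays. A bias of a spot between channels would thus repeat on every prep and cannot be told apart from a difference. Array medians lay between -0.07 and 0.08, so each value compares a transcript with the rest of the transcripts measured on that array. Errors are SDs over 4 preps. The p-values use a spread that limma moderates with that of all features, so they do not follow from a printed SD alone. For snt-1 the SD was 1.83 and the standard error in limma 0.61, and for mec-4 they were 0.11 and 0.14. A gene was called lower or higher at a Benjamini-Hochberg adjusted p under 0.05 in limma over all 19981 features tested. In RNA of this kind, fewer neurons and less RNA per neuron cannot be told apart, and neither can be told apart from a larger amount of other tissues in the same RNA. Since the make-up of the mixed reference is not given, both RNAs may also differ in stage. Genotype and stage cannot be told apart for any gene here.

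In glp-4 adults, 13 of the 32 neuron genes were lower than in the reference, 1 was higher and 18 did not pass the threshold in limma. The lower genes made up 40.6% of those tested, beside 20.9% of all features, and the higher gene 3.12%, beside 17%. The genes were chosen with earlier results of these data known, so these shares only describe the list and were not tested. The median log2 ratio of the 32 genes was -0.31, against 0.00 over all features. All 13 lower genes were below 0 on every prep, 17 of the 32 were below 0 on every prep in all, beside 28.8% of all features, and 3 were above 0 on every prep, beside 26.7%. The sizes were small: the lower genes ran from -0.48 to -1.95, and 2 of them, snt-1 and ric-4, were at least 2-fold lower, where 10.8% of all features were. One gene, bas-1, was at least 2-fold higher, where 7.83% of all features were.

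**Figure D1:**
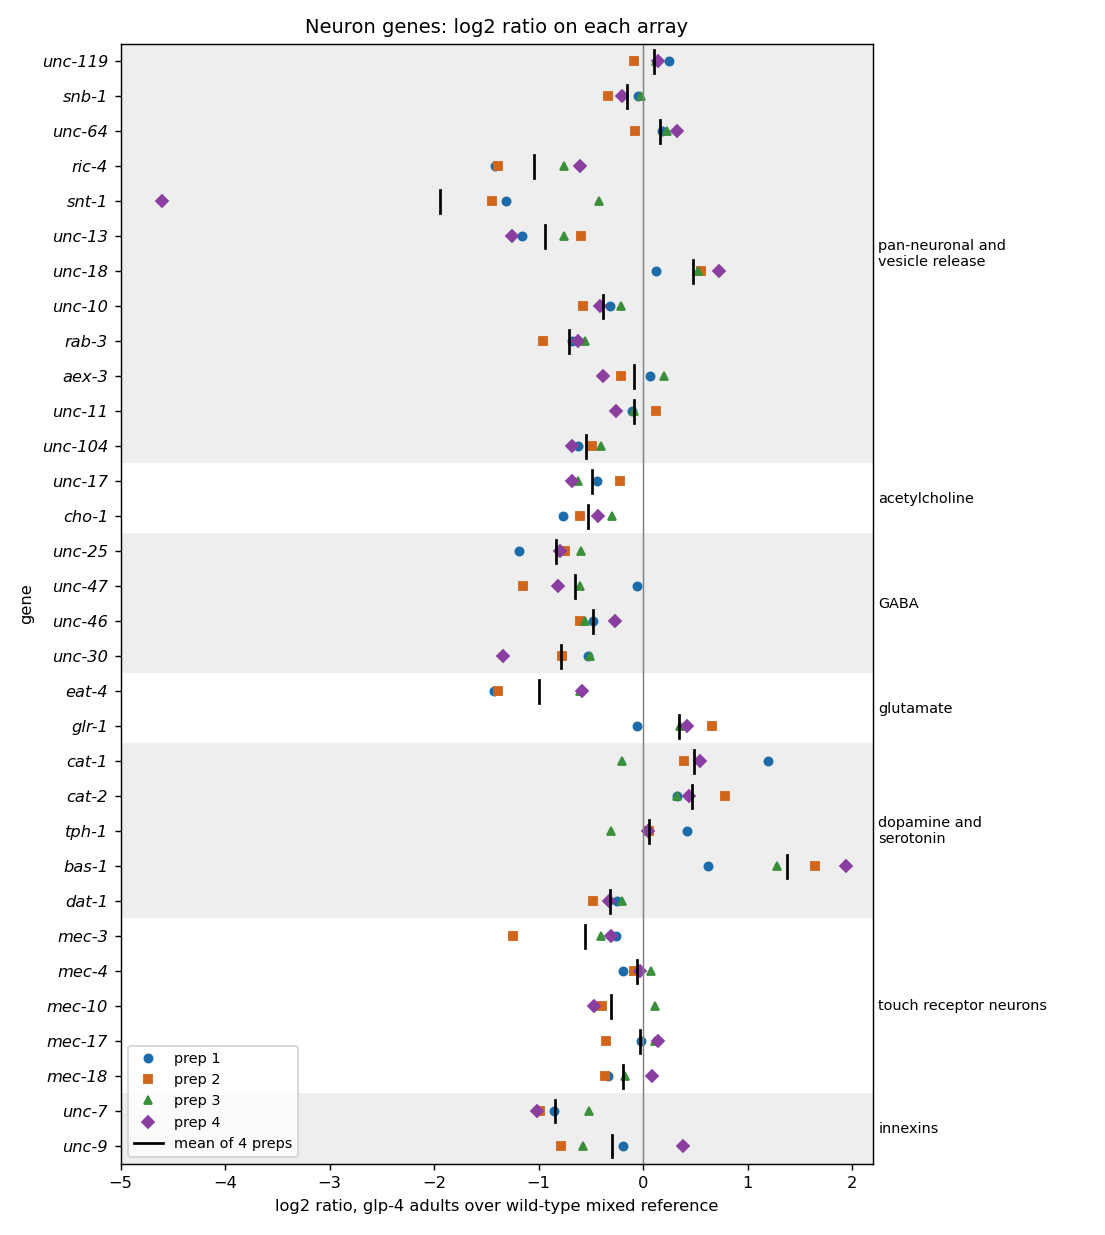
Log2 ratio of glp-4 adults over the wild-type mixed reference (horizontal axis) for each of the 32 neuron genes (rows, grouped by role); symbols are preps 1 to 4 and the black bar is their mean. The 4 GABA genes and both acetylcholine genes lie left of 0 on every prep, bas-1 lies right of 0 on every prep, and snt-1 has 1 value at -4.61.

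The number of lower genes depends on how many preps enter. It was 8 without prep 1, 8 without prep 2, 9 without prep 3 and 7 without prep 4. These were 25%, 25%, 28.1% and 21.9% of the 32 genes, beside 19.3%, 15.8%, 17.8% and 15.8% of all features. The arrays of preps 3 and 4 carry the same date in their titles. With these averaged to 1 array, a choice made after seeing the data, 8 genes (25%) were lower, beside 18% of all features. The 5 genes that lost their call there were unc-17 (adjusted p = 0.113), cho-1 (0.0535), unc-47 (0.0948), unc-46 (0.0683) and unc-104 (0.0504). The genes ric-4, unc-13, rab-3, unc-25, eat-4 and unc-7, 6 in all, were lower with all preps and in each of 12 alternatives run. The higher gene, bas-1, was also higher in each of these 12. Changing the number of values required, the choice of spot or the variance prior left the log2 ratios of these genes as they were. Such alternatives could only alter their p-values or adjusted p.

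One gene of the fusion machinery itself was lower. Of the 3 SNARE genes, ric-4, which encodes SNAP-25, was lower, with log2 ratios of -1.42, -1.38, -0.76 and -0.61 on preps 1 to 4. Its mean was -1.04 ± 0.42 (2.06-fold lower, adjusted p = 0.00605 in limma, n = 4 preps). Preps 1 and 2 lay lower than preps 3 and 4, and no prep came near 0. The synaptobrevin gene snb-1 had -0.05, -0.33, -0.02 and -0.20, with a mean of -0.15 ± 0.15. The syntaxin gene unc-64 had 0.19, -0.08, 0.22 and 0.33, with a mean of 0.17 ± 0.17. Neither passed (adjusted p of 0.441 and 0.409), and the 95% interval of limma ran from 0.708 to 1.15-fold for snb-1 and from 0.878 to 1.43-fold for unc-64. Every prep of ric-4 was below every prep of snb-1 and unc-64, and the values of snb-1 and unc-64 overlapped.

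The calcium sensor gene snt-1, which encodes synaptotagmin, had the lowest mean of all 32 genes and the widest spread. Its values were -1.31, -1.44, -0.43 and -4.61, with a mean of -1.95 ± 1.83 (adjusted p = 0.0431 in limma). The value of prep 4 lay far below the other 3, and without prep 4 the mean was -1.06 (adjusted p = 0.0266). The call was lost without prep 1 (adjusted p = 0.0705), without prep 2 (0.0814) and with a robust variance prior (0.0541). All preps were below 0, but the size of the difference rests on prep 4.

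Genes that act on the SNARE proteins also differed from each other. The priming factor gene unc-13 was lower, with -1.16, -0.60, -0.76 and -1.26 on preps 1 to 4 and a mean of -0.94 ± 0.31 (1.92-fold lower, adjusted p = 0.00558 in limma). The gene unc-18, whose product binds syntaxin, had 0.12, 0.55, 0.52 and 0.72, all above 0. Its mean of 0.48 ± 0.25 did not pass (adjusted p = 0.0537), though it did without prep 1 (0.60, adjusted p = 0.0429) and with array weights (0.49, adjusted p = 0.0470). Every prep of unc-13 was below every prep of unc-18. The active zone gene unc-10, which encodes RIM, lay between them with -0.32, -0.58, -0.21 and -0.41, below 0 on every prep and not past the threshold (-0.38 ± 0.16, adjusted p = 0.0811). Both of its spots were below 0 on every prep.

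Of the 5 remaining genes used by neurons in general, 2 were lower. The small GTPase gene rab-3, whose product sits on synaptic vesicles, had -0.69, -0.95, -0.55 and -0.63 (mean -0.70 ± 0.17, 1.63-fold lower, adjusted p = 0.0103 in limma). Its exchange factor gene aex-3 had 0.06, -0.21, 0.20 and -0.39 (mean -0.09 ± 0.26, adjusted p = 0.701), so the preps fell on both sides of 0. The kinesin gene unc-104, whose motor carries vesicle precursors along the axon, had -0.62, -0.49, -0.40 and -0.68, with a narrow spread. It was lower (-0.55 ± 0.13, 1.47-fold, adjusted p = 0.0233 in limma), but the call was lost without prep 1, 2 or 4, at adjusted p between 0.0506 and 0.0882, and with preps 3 and 4 averaged. The clathrin adaptor gene unc-11, related to AP180, had a mean of -0.08 ± 0.16, with 0.12 on prep 2 and the other preps below 0. Its 2 spots had opposite signs on prep 3, at 0.21 and -0.39. The gene unc-119, a chaperone for lipid-modified proteins whose promoter is used to mark all neurons, had a mean of 0.11 ± 0.14 (95% interval 0.847 to 1.37-fold), with 3 preps above 0.

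Both spots annotated with an acetylcholine gene were lower, beside 20.9% of all features. The spot named unc-17, the vesicular acetylcholine transporter, had -0.44, -0.22, -0.62 and -0.68 (mean -0.49 ± 0.21, 1.41-fold lower, adjusted p = 0.0432 in limma). Whether this spot reads unc-17, cha-1 or both is uncertain. The only gene that its transcript accessions match in the RefSeq table is cha-1, the choline acetyltransferase gene. Transcripts of both genes therefore cannot be told apart here. The choline transporter gene cho-1 had -0.77, -0.60, -0.30 and -0.43 (mean -0.52 ± 0.21, 1.44-fold lower, adjusted p = 0.0342 in limma). All 8 values were below 0. Both calls are near the threshold: unc-17 lost it when arrays were centred (adjusted p = 0.0513) and without prep 1, 3 or 4, at up to 0.146, and both lost it with preps 3 and 4 averaged. The call of cho-1 was lost without any 1 prep, at adjusted p between 0.0534 and 0.102.

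All 4 GABA genes were lower, beside 20.9% of all features. The glutamate decarboxylase gene unc-25, which makes GABA, had -1.19, -0.74, -0.59 and -0.79 on preps 1 to 4 (mean -0.83 ± 0.25, 1.78-fold lower, adjusted p = 0.00715 in limma). The homeodomain factor gene unc-30, which sets the fate of the D-type motor neurons, had -0.53, -0.78, -0.51 and -1.34 (mean -0.79 ± 0.39, 1.73-fold lower, adjusted p = 0.0160). No prep of either gene was above -0.5. The vesicular GABA transporter gene unc-47 had -0.05, -1.15, -0.61 and -0.81 (mean -0.66 ± 0.46, 1.58-fold lower, adjusted p = 0.0415), with prep 1 near 0. The gene unc-46, whose product sorts UNC-47 to vesicles, had -0.48, -0.60, -0.56 and -0.27 (mean -0.48 ± 0.15, 1.39-fold lower, adjusted p = 0.0398). Without single preps, unc-25 stayed past the threshold each time, unc-30 lost it without prep 4 (0.0566), unc-47 without prep 2, 3 or 4 (0.0922 to 0.128) and unc-46 without any 1 prep (0.0693 to 0.112). With preps 3 and 4 averaged, the calls of unc-47 and unc-46 were lost too.

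Glutamate genes split into a lower transporter and a receptor that did not pass. The vesicular glutamate transporter gene eat-4 had -1.42, -1.38, -0.60 and -0.58 (mean -0.998 ± 0.468, adjusted p = 0.00912 in limma). As for ric-4, preps 1 and 2 lay lower than preps 3 and 4. The AMPA-type receptor gene glr-1 had -0.06, 0.66, 0.35 and 0.42, with 3 preps above 0 and a mean of 0.34 ± 0.30 (adjusted p = 0.150, 95% interval 0.960 to 1.68-fold). Every prep of eat-4 was below every prep of glr-1.

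Genes of dopamine and serotonin included no lower member, where 20.9% of all features were lower. The gene bas-1, whose aromatic amino acid decarboxylase makes both transmitters, had 0.62, 1.65, 1.29 and 1.94 on preps 1 to 4. It was the only higher gene of the 32 (mean 1.37 ± 0.57, 2.59-fold higher, adjusted p = 0.00403 in limma), and 95.4% of all features tested had a lower mean. The enzyme of the preceding step in dopamine synthesis, the tyrosine hydroxylase gene cat-2, had 0.33, 0.78, 0.32 and 0.44, all above 0. Its mean of 0.47 ± 0.21 did not pass (adjusted p = 0.0512), while it did after quantile normalization (adjusted p = 0.0399) and over features measured on all 4 arrays (0.0485). The vesicular monoamine transporter gene cat-1 had 1.20, 0.39, -0.20 and 0.54, with prep 3 below 0 (mean 0.48 ± 0.57, adjusted p = 0.141).

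The genes tph-1 and dat-1 lay closer to 0. The tryptophan hydroxylase gene tph-1, the first enzyme of serotonin synthesis, had 0.42, 0.05, -0.31 and 0.04 (mean 0.05 ± 0.30, 95% interval 0.786 to 1.37-fold). The dopamine reuptake transporter gene dat-1 had -0.25, -0.48, -0.21 and -0.32, below 0 on every prep and with a narrow spread (mean -0.31 ± 0.12, adjusted p = 0.126). Every prep of bas-1 was above every prep of dat-1 and of tph-1. The genes cat-2 and dat-1, both used by dopamine neurons, had no overlapping values either.

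None of the 5 measured touch receptor genes passed in limma, and 12404 of all 19981 features did not pass either. Of 9 other mec genes, given below, 4 were lower. These genes act in the gentle touch neurons, where the LIM homeodomain factor MEC-3 works with the POU factor UNC-86. The factor gene mec-3 had -0.26, -1.25, -0.41 and -0.30, with prep 2 apart from the others (mean -0.55 ± 0.47, adjusted p = 0.0714), and passed after quantile normalization (adjusted p = 0.0435). The genes of the touch channel subunits, mec-4 and mec-10, had means of -0.06 ± 0.11 and -0.30 ± 0.28, and prep 3 was the one prep of each above 0. The tubulin acetyltransferase gene mec-17 had preps on both sides of 0 (mean -0.03 ± 0.23, 95% interval 0.757 to 1.27-fold). The gene mec-18 had a mean of -0.20 ± 0.21. A further 13 spots are annotated with mec-18 and a second gene and were not used. The 95% intervals of mec-4, mec-10, mec-17 and mec-18 all lay within a 2-fold difference either way. The signal of these spots over background is unknown, so the intervals hold for the measured ratios and do not exclude a larger difference in transcript.

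The 2 innexins, subunits of gap junctions that couple interneurons and motor neurons of locomotion, differed in spread. The gene unc-7 had -0.85, -0.99, -0.52 and -1.02 (mean -0.84 ± 0.23, 1.79-fold lower, adjusted p = 0.00606 in limma), with every prep at -0.5 or below. The gene unc-9, which muscle also uses, had -0.19, -0.79, -0.58 and 0.39 (mean -0.29 ± 0.52, adjusted p = 0.317), and prep 4 lay above 0.

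**Figure D2:**
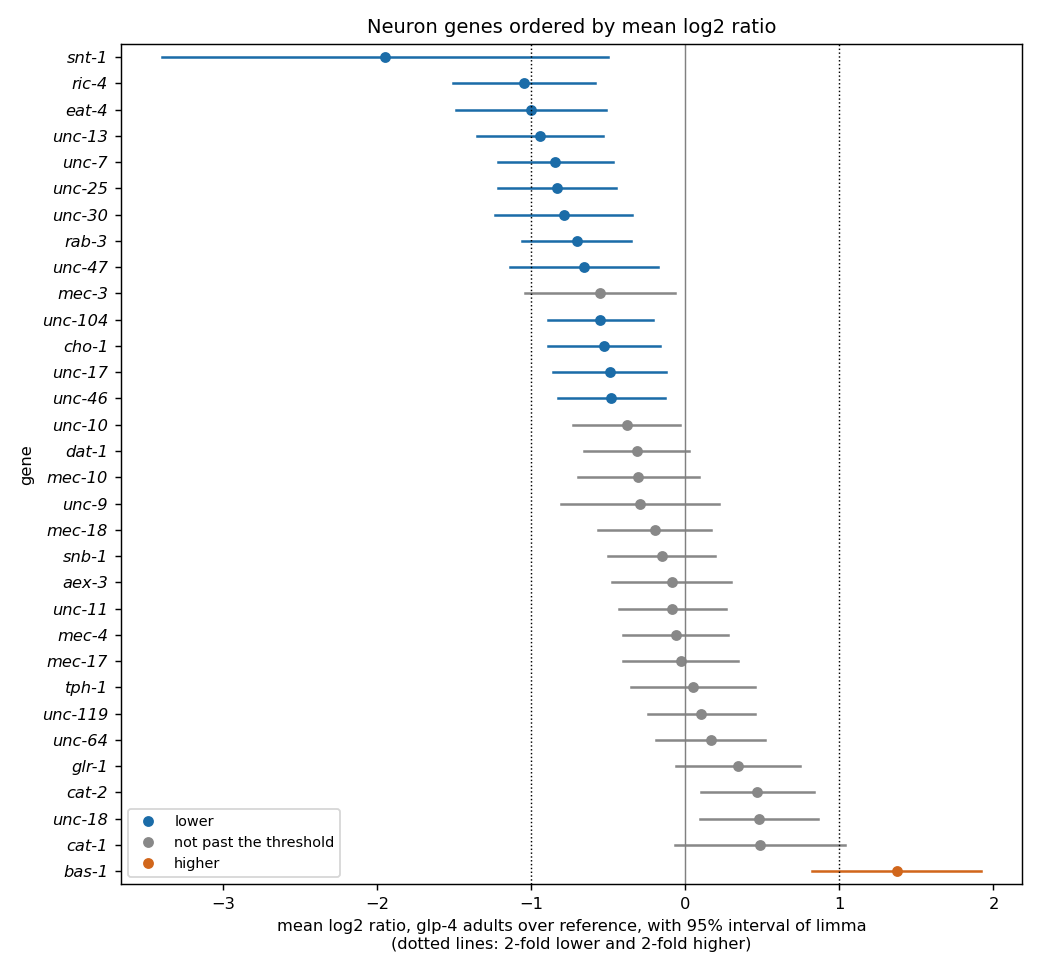
Mean log2 ratio of each neuron gene (point) with its 95% interval in limma (line), ordered from lowest to highest, in blue for lower, orange for higher and grey for not past the threshold. The intervals of 20 genes, 16 of them grey, lie within the dotted lines at a 2-fold difference, and the interval of snt-1 is the widest.

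Spread between preps was modest for most genes. The SD over preps had a median of 0.24 over the 32 genes, against 0.35 over all features, and 4 genes had an SD above 0.5: snt-1, bas-1, cat-1 and unc-9. Between 21 genes (prep 4) and 25 genes (prep 2) were below 0 on a single array. Array medians of the 32 genes ran from -0.44 to -0.25, against -0.07 to 0.08 over all features. Over the 32 genes, Pearson correlations between single arrays ran from 0.594 to 0.842, and from 0.649 to 0.853 without snt-1. The preps share the reference RNA and the array design, and genes are not replicates. Among the 18 genes that did not pass, 6 had the same sign on every prep: unc-10, snb-1, dat-1 and mec-3 below 0, and unc-18 and cat-2 above it. The counts in this paragraph were not set beside shares of all features, so they only describe the list.

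**Figure D3:**
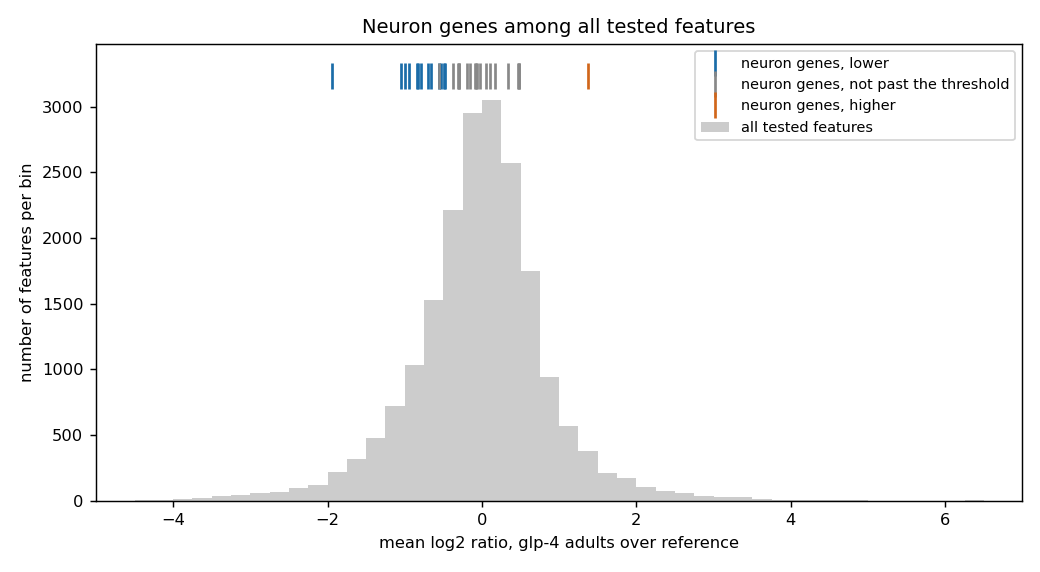
Histogram of the mean log2 ratio of all 19981 tested features (grey, bins of 0.25), with the 32 neuron genes as ticks above it. The lower genes (blue) lie on the left shoulder of the distribution, between -1.95 and -0.48, and bas-1 (orange) is the tick on the right at 1.37.

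Related genes were taken from 8 lists with 196 tested genes, and some of them, such as the germline innexin inx-14, are not neuron genes. Of these, 44 were lower and 22 higher, or 22.4% and 11.2%, beside 20.9% and 17% of all features, and their median was -0.16. A difference from the 32 genes above was not tested. Among 54 other genes of vesicle release, 11 were lower and 1 higher (20.4% and 1.85%). The lowest were fsn-1 (-1.86 ± 0.40), part of a ubiquitin ligase that shapes synapses, the synaptotagmin gene snt-4 (-1.72 ± 0.43) and the synaptogyrin gene sng-1 (-1.36 ± 0.18). The higher one was another synaptotagmin gene, snt-5 (0.70 ± 0.18), so the synaptotagmin genes differed in direction.

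Of 19 acetylcholine partners, including receptors, 3 were lower and 0 higher in limma (15.8% and 0%, beside 20.9% and 17% of all features). The lower ones were the muscarinic receptor gene gar-3 (-0.79 ± 0.63) and the nicotinic subunit genes acr-3 (-0.62 ± 0.33) and unc-38 (-0.55 ± 0.27). Of 12 GABA partners, 2 were lower and 1 higher (16.7% and 8.33%). The plasma membrane GABA transporter gene snf-11 (-0.89 ± 0.19) and the receptor subunit gene lgc-37 (-0.53 ± 0.15) were lower. The gene gta-1, which encodes the transaminase that breaks GABA down, was higher (1.21 ± 0.24, 2.31-fold). On every prep unc-25, unc-47 and snf-11 were below 0, with unc-47 at -0.05 on prep 1, and gta-1 was above 0. The other 9 partners did not pass, and the genes were not tested as a pathway.

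Of 28 partners of glutamate, 7 were lower and 5 higher (25% and 17.9%), shares near the 20.9% and 17% of all features. The lowest were the transporter gene glt-5 (-1.72 ± 0.92), the chloride channel gene avr-14 (-0.84 ± 0.33) and the NMDA receptor gene nmr-2 (-0.69 ± 0.48), and the highest were glt-1 (1.07 ± 0.61) and glt-6 (0.85 ± 0.29), both transporters, and glc-2 (0.69 ± 0.36). Of 9 other mec genes, 4 were lower and 0 higher (44.4% and 0%). The lowest were the stomatin-like gene mec-2 (-0.76 ± 0.17), mec-9 (-0.66 ± 0.37) and the splicing factor gene mec-8 (-0.55 ± 0.31). The fourth was mec-7, a beta-tubulin gene of touch neurons (-0.52 ± 0.14, named after its value was seen). Of 28 neuronal transcription factor genes, 9 were lower and 1 higher (32.1% and 3.57%). The lowest were egl-46 (-1.22 ± 0.43), the corepressor gene unc-37 (-1.11 ± 0.10) and die-1 (-1.02 ± 0.26), and egl-44 (0.65 ± 0.32) was the higher one. The 19 other innexins had 7 higher and 5 lower genes (36.8% and 26.3%). They ran from inx-3 (-2.44 ± 0.22) and the germline innexin inx-14 (-2.29 ± 0.56) to inx-17 (1.27 ± 0.44).

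**Figure D4:**
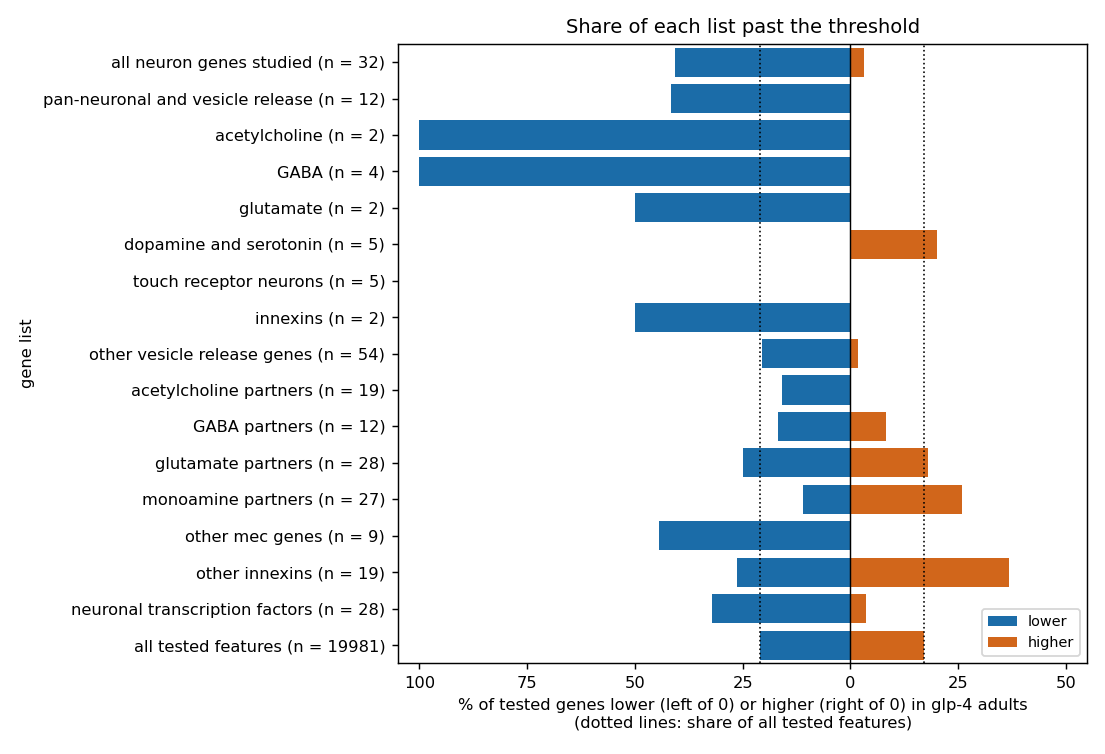
Share of tested genes that were lower (blue, left of 0) or higher (orange, right of 0) in glp-4 adults, for the neuron genes studied, their 7 roles, 8 lists of related genes and all tested features; n is the number of genes tested. The dotted lines mark 20.9% lower and 17% higher over all features.

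Markers of other tissues were read from the same arrays. All 12 germline markers were lower, with a median of -3.31 and array medians between -3.83 and -3.05. Of 12 intestine markers, 11 were higher and 0 lower (median 2.36, array medians 2.12 to 2.39), and of 13 muscle markers 8 were higher and 1 lower (median 0.94, array medians 0.21 to 1.49). Epidermis markers had 7 lower and 3 higher of 12 (median -0.83), with the adult collagen gene col-19 at 3.74 ± 0.64 and the body shape collagen gene dpy-17 at -2.72 ± 0.59. Glia markers had 3 lower and 2 higher of 10 (median -0.09), or 30% and 20%, beside 20.9% and 17% of all features. Ratios carry no level, so which markers are near 0 in either RNA is unknown, and the part of these tissues and stages in the ratios of the neuron genes was not tested.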

How the data were processed

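The authors deposited 1 log2 ratio per spot for 4 arrays of 21632 spots, with glp-4 adults in channel 2 and the reference in channel 1, per the labels. The scale was read from the values: on every array 100% of those below -2 were the log2 of a multiple of 0.001, within 1e-06. The sources used here do not give the scanner, dyes, background correction or normalization, and signal over background is unknown. The precision is limited by the number of arrays. The platform annotation gave the gene names: 16450 spots had 1 gene, 247 several, and 16360 matched RefSeq by gene number, with 0 symbols changed. The spot named unc-17 did not match and kept its name. No sequences are shown. Spots of a gene were averaged per array, giving 20140 features. Features with at least 3 values, 19981 in all, were tested against 0 with limma 3.58.1 in R 4.3.3 (lmFit, eBayes, two-sided). The fit was tested on simulated data. An exact sign permutation over 4 preps cannot go below p = 0.125, so none was run. The members and all lists were chosen with earlier results of these data known. All members were named. Genes of each related list were drawn from up to 3 lowest and 3 highest past the threshold with the same sign on every prep. Markers were drawn from the ends of each list, and not all genes so chosen are named in the text. Python 3.11.15, pandas 2.3.3 and matplotlib 3.10.9 served for tables and plots. Alternatives changed the centring, scaling, missing values, spots, variance prior, array weights, title date and preps.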

Additional observations from a re-analysis of the deposited data

Results flagged for a closer look

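Among the 32 genes, 2 had a prep set apart from the other 3, by a gap to the nearest other prep whose share of the whole range exceeds Dixon's 95% critical value for 4 samples. Chance gives about 1 in 20, or 1.6 of 32. The touch neuron factor gene mec-3 had -1.25 on prep 2, against -0.41 to -0.26 on the others (gap 0.851 of the range). The touch channel gene mec-10 had 0.12 on prep 3, against -0.47 to -0.39 on the others (gap 0.861). The value of -4.61 of snt-1 on prep 4 was farther from its neighbours in log2 units, but its gap was 0.757 of the range.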

How the results depend on the processing

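Of the 13 lower genes, 6 kept direction and call in all 12 alternatives, as did bas-1 and 11 of the 18 genes that did not pass. Some of these alternatives left their log2 ratios unchanged. Lower genes numbered 8 with the arrays of 1 title date averaged and 7 to 9 without single preps, and higher genes 2 after quantile normalization, with 4 values required or with array weights, and 1 to 2 without single preps. Over all features, the higher ones numbered 2091 to 2793 without single preps, where fewer arrays and 19120 to 19471 features entered each fit. Centring shifted the median of all features by 0.02. Signs turned only for genes near 0: unc-11 (0.0155, by its spot nearest to 0), mec-17 (0.0095 with array weights, and -0.0879 to 0.0782 without single preps, above 0 without prep 2), tph-1 (-0.0705 to 0.172, below 0 without prep 1) and aex-3 (-0.179 to 0.0153, above 0 without prep 4), and the cause was not tested. The planned random block by title date could not be fitted, because 3 dates on 4 arrays leave no correlation to estimate. No paired analysis was possible because the preps form 1 group.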

Other observations

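Of 27 tested partners of the monoamine genes, 7 were higher and 3 lower (25.9% and 11.1%, beside 17% and 20.9% of all features). The tyrosine decarboxylase gene tdc-1, the first step towards tyramine and octopamine, was lower, with -2.34, -2.94, -2.76 and -2.57 on preps 1 to 4 (mean -2.65 ± 0.26, 6.29-fold lower, adjusted p = 0.000118 in limma). The gene of the next step, the tyramine beta-hydroxylase gene tbh-1, was higher, with 0.71, 1.60, 1.66 and 1.91 (mean 1.47 ± 0.52, 2.77-fold higher, adjusted p = 0.00246). Both genes are known from the RIC neurons and the gonadal sheath, and tdc-1 also from RIM neurons and uterine cells, so neither value reads neurons alone.

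The 7 higher genes of this list also included amx-3, related to amine oxidases (1.48 ± 0.42), and ptps-1 (1.30 ± 0.38), which makes the cofactor of the hydroxylases encoded by cat-2 and tph-1. The others were pcbd-1 (0.58 ± 0.29), octr-1 (0.58 ± 0.30), qdpr-1 (0.50 ± 0.26) and amx-2 (0.45 ± 0.12), named after their values were seen. Whether any of these values reads neurons alone was not tested. The homeobox gene ceh-43, which acts in dopamine neurons and elsewhere, was lower (-1.27 ± 0.63). The gene cat-4, which encodes the first enzyme of the same cofactor pathway and was named after its value was seen, had -0.53, 0.24, 0.12 and 0.46, and did not pass (mean 0.07 ± 0.42, adjusted p = 0.794).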
